A study of Drosophila melanogaster with 4 samples.

Results

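In whole Drosophila melanogaster embryos, 378 narrow regions of RNA polymerase II (Pol II) enrichment lay in short runs, out of 4366 regions in the list of the whole series. They were chosen by position and width in that list. Neighbouring regions were joined into a run where fewer than 1000 bp lay between them, runs of 3 or more regions were kept, and regions under 1000 bp wide within those runs were taken as the members. The 123 runs held 446 regions in all, and the 68 regions at least 1000 bp wide counted in building the runs but are not members. Runs therefore made up 10.2% of the whole list by the rule itself, and that share is no finding.

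Embryos of all stages from 0 to 24 h of development were collected together. Chromatin was immunoprecipitated with the mouse monoclonal antibody CTD4H8 in 2 separate extractions, called replicate 1 and replicate 2, and each gave its own list of regions (5763 and 8872). The 2 input samples carry no antibody selection and are not analysed here, and the values below have no background measured beside them. The labels name no strain, genotype or treatment, and a mixture of all embryonic tissues and stages was sampled, so occupancy in more cells and higher occupancy per cell cannot be told apart. Each region carries the authors' score, which has no unit in the files. Sequencing depth is unknown, and with 1 list per extraction the values below are descriptions with no p-value. Share intervals are Wilson 95% intervals and cover counting error only. Regions of 1 run share a locus and are not independent, so these intervals are too narrow for them.

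Pol II transcribes protein-coding genes and many non-coding RNAs. Its largest subunit ends in a tail of repeated heptapeptides that CTD4H8 recognises. In Drosophila embryos Pol II gathers just downstream of many promoters, where it pauses before elongation, and it also lies over the bodies of highly transcribed genes. Pol II ChIP signal can therefore be a sharp peak at a start site or an uneven domain along a gene, and a caller that cuts the signal at a threshold can return an uneven domain as several neighbouring regions. Whether a run is 1 such domain or several start sites cannot be told apart from region lists. Positions below are on FlyBase r5.1 and count from 1. Runs are named by position alone. The gene table at hand follows a different release of the genome, and no genome of r5.1 was used here, so neither genes nor sequences are given.

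Most runs were short. Of the 123 runs, 80 held 3 regions, 26 held 4, 9 held 5 and 5 held 6, and the remaining runs held 7, 9 and 11. A total of 345 further pairs and 3230 lone regions made up the rest of the list. The runs spanned 1168 to 11461 bp, with a median of 3056 bp and quartiles of 2228 and 3996 bp, and 13 spanned more than 5 kb. Together they took in 414 kb, of which 268 kb lay within a region. In the median run 64.6% of the span was covered, with a range of 27.4% to 87.6%. Most of the length of the median run was thus called as enriched in the whole-series list. That list takes its outer ends from both replicates, and the rule limits gaps but not the widths of regions in a run. In replicate 1 alone the median member extent was 269 bp and the median gap 528 bp, and in replicate 2 they were 353 and 428 bp. The covered share was not computed for either replicate alone.

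A total of 71 runs consisted of members alone, 37 held 1 wide region and 15 held 2 or more. Of the 446 regions in runs, 68 were at least 1000 bp wide. Among end regions 36 of 246 were wide (14.6%, interval 10.8% to 19.6%), and among inner regions 32 of 200 were (16%, 11.6% to 21.7%), against 7.1% of the whole list. Ends and insides of runs thus held wide regions at shares whose intervals overlap. The members themselves had a median width of 399 bp (quartiles 250 and 597 bp), against 262 bp (197 and 437 bp) in the 3678 other regions under 1000 bp. Of these others, regions in runs of 2 had a median of 343 bp (215 and 538 bp) and lone regions 252 bp (194 and 417 bp). Greater width than in lone regions was thus not particular to the members. The narrowest member was 22 bp.

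Among the chromosome arms, 3L held the most runs. It carried 30 runs with 95 members, and 116 of its 924 regions (12.6%, interval 10.6% to 14.8%) lay in runs. Arm 2R followed with 26 runs and 104 of 881 regions (11.8%, 9.84% to 14.1%), and 2L with 22 runs and 79 of 800 (9.88%, 8.00% to 12.1%). The share was lower on 3R, with 21 runs and 69 of 894 regions (7.72%, 6.14% to 9.65%), and on X, with 16 runs and 53 of 697 (7.60%, 5.86% to 9.81%). Arms 2R and 3L also had the most regions per Mb of the 5 large arms, at 41.7 and 39.6, and X and 3R the fewest, at 31.1 and 32.1.

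The lead of 3L appeared in both extractions when the same rule was applied to each list alone, and the place of 2R did not. In replicate 1, 23.6% of the regions on 3L lay in runs, then 19.9% on 2R, 16.3% on 2L, 16.1% on 3R and 15.3% on X. In replicate 2 the shares were 25.4% on 3L, 23.5% on X, 21.8% on 2L, 21.0% on 3R and 19.9% on 2R. Arm 2R was thus next to 3L in replicate 1 and the lowest of these arms in replicate 2. No intervals were computed for the replicate shares, and in the whole list the intervals of 3L and 2R overlapped. Few regions in runs lay elsewhere, with 6 of 51 on chromosome 4, 6 of 19 on 2RHet, 3 each on 3LHet, 3RHet and U, and 4 of 9 on XHet.

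**Figure D1:**
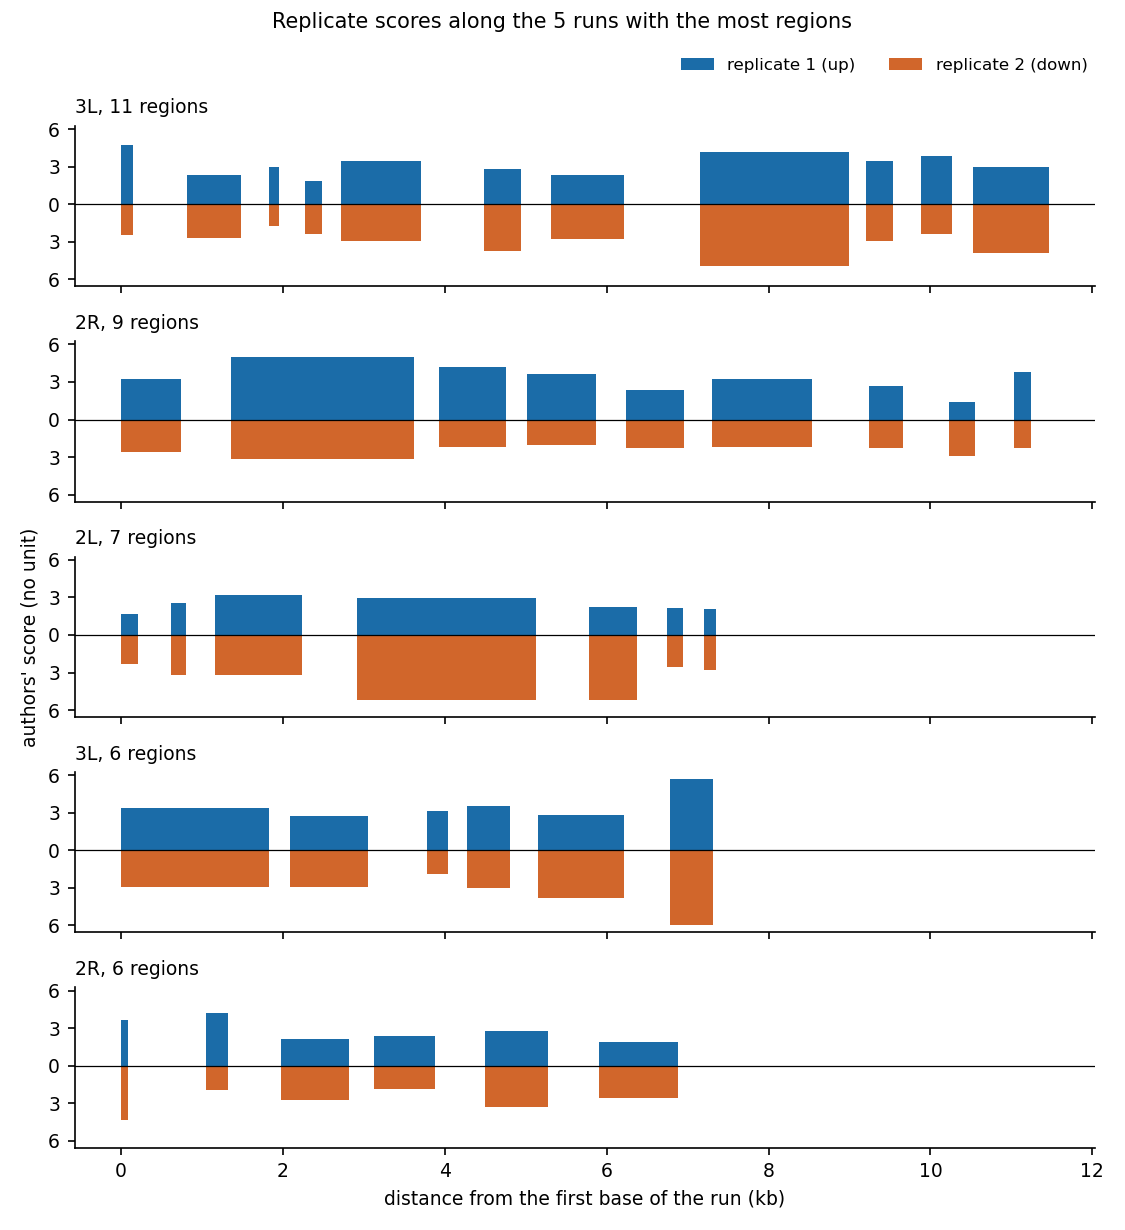
Replicate scores (vertical axis, no unit; replicate 1 upward, replicate 2 downward) along the runs of 11, 9 and 7 regions and the 2 longest of the 5 runs of 6, by distance from the first base of each run in kb. Bar width is the region's width in the whole-series list. The run of 11 on 3L and the run of 9 on 2R both extend over about 11 kb, and the 9 regions on 2R score higher in replicate 1 with 1 exception.

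The longest run lay on 3L (632205 to 643665), where 11 regions spanned 11461 bp. In replicate 1 its scores along the run were 4.74, 2.36, 2.98, 1.86, 3.47, 2.83, 2.34, 4.17, 3.43, 3.83 and 2.96. In replicate 2 they were 2.48, 2.73, 1.78, 2.37, 2.93, 3.73, 2.75, 4.90, 2.96, 2.35 and 3.88. The widest region of the run, 1830 bp at 639363 to 641192, had the highest score in replicate 2 and the next to highest in replicate 1. The highest in replicate 1 was the narrow first region, 144 bp wide, which ranked eighth in replicate 2. The replicates thus shared a strong broad region. They differed at the left end and also farther along, as at the tenth region, with 3.83 in replicate 1 and 2.35 in replicate 2.

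The run of 9 on 2R (12716319 to 12727561) spanned 11243 bp and stood 44970 bp and 28126 bp from the nearest regions to its left and right. Its scores were 3.21, 5.02, 4.22, 3.61, 2.34, 3.27, 2.70, 1.40 and 3.76 in replicate 1, and 2.60, 3.14, 2.21, 2.06, 2.26, 2.17, 2.25, 2.87 and 2.24 in replicate 2. Both replicates scored the wide second region (2258 bp) highest. After it the scores fell along the run to the fifth region in replicate 1, while 6 of the 7 regions that follow lay between 2.06 and 2.26 in replicate 2.

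On 2L (16781724 to 16789073) 7 regions spanned 7350 bp, and all 7 scored higher in replicate 2. The highest score fell on a region of 1084 bp in replicate 1 and on its neighbour of 2215 bp in replicate 2. They were 1.66, 2.57, 3.16, 2.97, 2.27, 2.19 and 2.06 in replicate 1 and 2.29, 3.16, 3.20, 5.23, 5.17, 2.55 and 2.82 in replicate 2. Of the 5 runs of 6, the 2 with the longest span are described. The one on 3L (10187697 to 10195013) had its highest score at its right end in both, with 5.67 in replicate 1 and 5.97 in replicate 2 for a region of 540 bp. Its other regions scored 2.77 to 3.53 in replicate 1 and 1.89 to 3.81 in replicate 2. The one on 2R (17585603 to 17592482) held 6 members and no wide region. There the first region, 86 bp wide, scored 3.67 and 4.35 in replicates 1 and 2, and the next scored 4.22 and 1.93, so a different region led in each replicate. The largest run on X (11695828 to 11700527) held 4 regions, which scored 3.88, 4.47, 3.92 and 3.15 in replicate 1 and 1.83, 5.36, 2.44 and 2.79 in replicate 2. Its wide region of 1830 bp led in both lists.

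Runs with more regions did not score higher by much. The median score over regions was 2.54 in replicate 1 and 2.76 in replicate 2 in runs of 3, 2.57 and 2.73 in runs of 4, 2.72 and 3.21 in runs of 5, and 2.73 and 2.95 in runs of 6. Single regions of high score lay in runs of several sizes. On 3L, in a run of 5, a region of 181 bp scored 11.95 in replicate 1 and 6.05 in replicate 2, and in a run of 6 on 2R a region of 1956 bp scored 9.33 and 7.20. Of the runs outside U, the 5 with the highest median score held 3 or 5 regions. In one of them, on 2R (16831144 to 16834456), a region of 393 bp scored 7.40 in replicate 1 and 7.41 in replicate 2, and its wide neighbour of 2266 bp scored 8.57 and 7.79. The first region of that run, 92 bp wide, scored 1.71 and 1.98, far below both.

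The other 4 were on 3LHet, X, 3R and chromosome 4. On 3LHet (2397723 to 2399817) the scores were 6.12, 7.87 and 4.13 in replicate 1 and 7.61, 9.26 and 2.54 in replicate 2, with the middle region highest in both. On X (5794814 to 5798996) a first region of 241 bp scored 12.9 in replicate 1 and 7.27 in replicate 2, above its neighbours at 4.32 and 5.18 in replicate 1 and 4.20 and 4.91 in replicate 2. On 3R (2124836 to 2129285) 5 members scored 4.31, 4.70, 6.51, 2.80 and 2.11 in replicate 1 and 5.99, 5.31, 7.88, 3.27 and 1.66 in replicate 2. The middle region led in both lists and the last was the lowest in both. On chromosome 4 (1050740 to 1055066) the middle region of 349 bp led with 5.96 and 10.2, between neighbours of 3.23 and 4.39 in replicate 1 and 3.94 and 5.50 in replicate 2. In each of these runs the same region led in both extractions.

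Among the mapped heterochromatic scaffolds, 2RHet held 2 runs of 3. One (3180502 to 3183635) rose along its length from 1.40 through 1.70 to 2.99 in replicate 1 and from 1.48 through 2.99 to 6.02 in replicate 2. The other (470233 to 471767) scored 2.52, 5.01 and 4.74 in replicate 1 and 2.95, 2.77 and 5.84 in replicate 2, so a different region led in each. The run on XHet (60846 to 63676) held 4 members, and its region of 656 bp was the highest in replicate 1 (4.37) and the lowest in replicate 2 (1.61). The run on 3RHet (2477072 to 2479065) differed by little within each list, from 2.87 to 3.68 in replicate 1 and from 2.17 to 2.93 in replicate 2. Its order was not shared.

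Runs were mostly far from each other. For the 119 runs with another on their chromosome, the nearest lay at a median of 362 kb, and for 42 of them it was over 500 kb away. A total of 22 runs had another within 20 kb, and 8 of these within 5 kb. The closest were on 3L, where a run of 4 (628064 to 631012) ended 1192 bp before the run of 11 described above. Its scores were 5.09, 2.00, 2.93 and 2.54 in replicate 1 and 5.35, 1.48, 2.27 and 2.37 in replicate 2, led by the first region in both. On X a run of 3 (14366246 to 14370620) ended 1557 bp before another of 3 (14372178 to 14374206), and further close pairs lay on 3L 2506 bp apart and on 2R 3894 bp apart. The nearest region outside a run, which may belong to another run, was at a median of 3315 bp, within 2 kb for 41 runs and at least 10 kb away for 30.

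**Figure D2:**
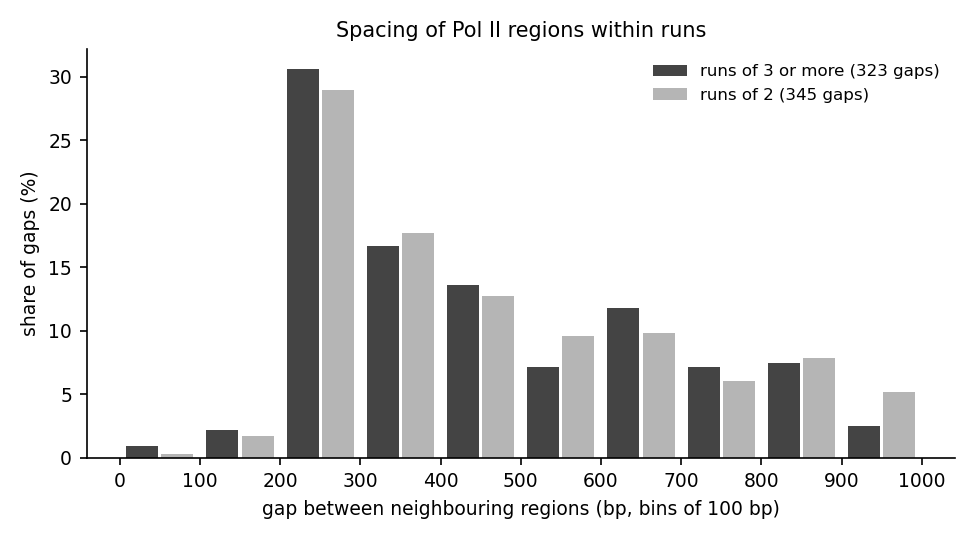
Share of gaps (vertical axis, %) by the number of bp between neighbouring regions (horizontal axis, bins of 100 bp) in the 123 runs of 3 or more regions and in the 345 runs of 2. In both, few gaps are under 200 bp, and the bin from 200 bp holds the most, with 30.7% and 29.0%.

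The 323 gaps within the runs had a median of 396 bp (quartiles 267 and 629 bp), and the centres of neighbouring regions were a median of 974 bp apart (747 and 1299 bp). Of the gaps, 99 (30.7%) were at least 200 and under 300 bp long, 54 were at least 300 and under 400 bp and 160 were at least 400 bp. No neighbours in either replicate list were closer than 200 bp, so the fullest bin starts at the shortest gap those lists hold. The 10 gaps under 200 bp are shorter than any gap of either replicate list, since a whole-series region takes its outer ends from both. The 345 runs of 2 were spaced much like the larger runs, with a median gap of 406 bp (279 and 636 bp) and a median of 908 bp between centres. Gaps up to 1000 bp follow from the rule, and only their distribution below that limit is described here.

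Spacing was uneven within a run. The largest gap of a run was a median of 1.99 times its smallest. It was under 1.5 times in 46 runs and over 3 times in 29. In the 80 runs of 3 the first gap, by position, had a median of 377 bp and the second 378 bp, and the first was the larger in 37 and the second in 43. The run on chromosome 4 at 1050740 had gaps of 827 and 879 bp, and that on 2R at 15165370 had gaps of 201 and 860 bp. Measured between the regions of 1 replicate, 305 of the 323 gaps (94.4%) stayed under 1000 bp in replicate 1 and 322 (99.7%) in replicate 2. Median gaps were 528 bp in replicate 1 and 428 bp in replicate 2. In 190 gaps both edges were set by replicate 2 and in 32 by replicate 1.

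The limits of the rule cut through a continuous range. The widest gaps kept within a run were 964 bp on 3R, after 4644396, and 963 bp on 2R, after 17585688. A gap of exactly 1000 bp on 2R, before 6411354, left out a region that scored 2.57 in replicate 1 and 2.44 in replicate 2, next to a member that scored 3.09 and 2.94. Gaps of 1002 bp on 2R and 1006 bp on 3L came next. The widest members were 994 bp on 2RHet (scores 1.40 and 1.48) and 993 bp on 3L (2.73 and 2.44), and the narrowest regions of runs that were too wide to count were 1007 bp on 3L (1.67 and 1.75) and 1012 bp on 3R (2.12 and 2.22). Scores on both sides of the limits overlapped.

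The rule did not use scores. There the members differed from the other regions under 1000 bp mainly in replicate 2, and regions in runs of 2 scored as low. In replicate 1 the members scored 1.37 to 12.9, with a median of 2.55 (quartiles 2.04 and 3.28), and the other regions under 1000 bp had a median of 2.60 (2.03 and 3.6). In replicate 2 the member median was 2.74 (2.07 and 3.57) and that of the other regions 3.23 (2.24 and 4.74). The medians thus stood farther apart in replicate 2, and the interquartile ranges overlapped in both. Of the other regions, the 609 in runs of 2 had medians of 2.42 in replicate 1 and 2.71 in replicate 2, below the members in both. The 3069 lone regions had 2.63 and 3.36. The lower replicate 2 score was thus not particular to the members. Scores recur on a chromosome (53.1% of replicate 1 regions and 41.7% of replicate 2 regions share theirs with another region there) and may not share a scale between chromosomes, so the comparison was repeated by arm.

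On each of the 5 large arms the member median in replicate 2 was below that of the other regions. It was 2.80 against 3.55 on 2L, 2.54 against 3.29 on 2R, 2.65 against 3.21 on 3L, 2.30 against 2.77 on 3R and 3.20 against 3.43 on X. In replicate 1 the members were lower on 2 of the 5 arms, with 2.43 against 2.69 on 2L and 2.41 against 2.59 on 2R. The medians were 2.60 in both groups on 3L, and the members were higher on 3R (2.59 against 2.42) and X (2.78 against 2.67). The lower member score was therefore common to all 5 arms in 1 extraction and not in the other. Regions in runs of 2 were not set apart from lone regions by arm.

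**Figure D3:**
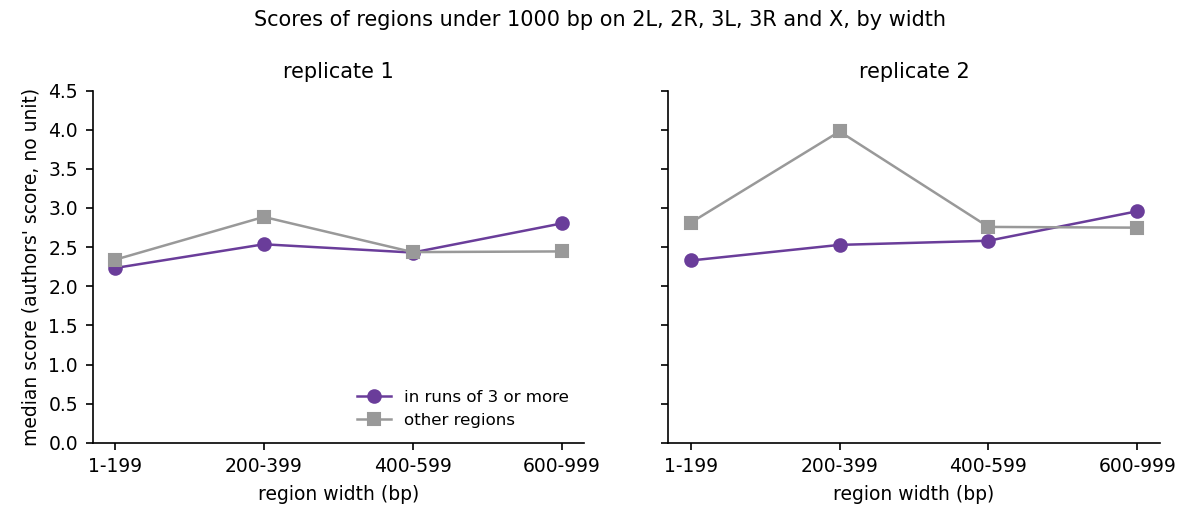
Median score (vertical axis, authors' score, no unit) in 4 classes of region width in bp (horizontal axis) on the 5 large arms, for members and for the other regions under 1000 bp, in replicate 1 (left) and replicate 2 (right). In replicate 2 the other regions of 200 to under 400 bp reach 3.98 while the members stay at 2.53.

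The difference varied with width. Among regions of 200 to under 400 bp on the 5 large arms, the 117 members had a median of 2.54 in replicate 1 (quartiles 1.88 and 3.17) and 2.53 in replicate 2 (1.89 and 3.26). The 1591 other regions of that width had 2.89 (2.15 and 4.09) and 3.98 (2.65 and 5.55). Among regions of 400 to under 600 bp the medians were close, with 2.43 and 2.58 in members against 2.44 and 2.76. In the widest class, 600 bp and over, the members scored higher in both, with 2.80 and 2.96 against 2.44 and 2.75. Under 200 bp the 57 members had medians of 2.23 in replicate 1 and 2.33 in replicate 2, against 2.34 and 2.81 in the 914 others. The members thus scored below other regions in both classes under 400 bp and not from 600 bp up.

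The relation between the replicates also differed between the members and the pooled other regions. A total of 209 of 378 members (55.3%, interval 50.3% to 60.2%) scored higher in replicate 2, against 65% of the whole list and 2430 of 3678 other regions under 1000 bp (66.1%, 64.5% to 67.6%). The share was below that of the other regions on all 5 large arms, and was lowest on 3L, with 46 of 95 members (48.4%) against 64.3%. By width, it was 50% in members against 64.0% in the others under 200 bp, and 52% against 70.5% at 200 to under 400 bp. In wider regions the shares were close, with 58.3% against 61.7% at 400 to under 600 bp and 60.2% against 60.6% from 600 bp up. The log2 ratio of the replicate 2 score to the replicate 1 score had a median of 0.07 in members (quartiles -0.29 and 0.40) and 0.22 in the others (-0.15 and 0.66). By more than a factor of 2 the replicates differed in 33 members (8.73%, 6.28% to 12%), against 12.4% of the whole list, and they lay within a factor of 1.5 in 272 members (72%), against 65.5% of the whole list. Regions in pairs resembled the members, with 58.9% higher in replicate 2 and 6.90% differing by more than a factor of 2. These differences were not tested.

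U, the unplaced scaffolds, stood apart in scale. The 3 members of its run (7542900 to 7545050) scored 8.78, 6.13 and 2.62 in replicate 1 and 53.0, 80.8 and 17.0 in replicate 2. All 53 other regions under 1000 bp on U also scored higher in replicate 2, with a median log2 ratio of 2.70 both there and in the run. Without U the median log2 ratio over the members was still 0.07. On chromosome 4 all 4 members scored higher in replicate 2, with a median log2 ratio of 0.80 against 0.31 in the 42 other regions there.

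Within a run, scores varied more than between runs. The highest score of a run was a median of 1.78 times its lowest (quartiles 1.46 and 2.33), from 1.04 to 4.95 times, and 12 runs exceeded 3 times. On the log2 scale the SD of scores within runs outside U was 0.50 in replicate 1 and 0.57 in replicate 2, and the SD between runs was 0.25 and 0.21. Differences between runs made up 19.9% of the variance in replicate 1 and 12% in replicate 2. Neighbours within runs were closer in score than neighbours at least 1000 bp apart. Their median absolute log2 difference was 0.38 in replicate 1 and 0.52 in replicate 2, against 0.49 and 0.58 for those from 1000 bp to under 10 kb apart and 0.55 and 0.66 for those at least 10 kb apart. In runs of 2 it was 0.45 and 0.50, above the larger runs in replicate 1 and below them in replicate 2.

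**Figure D4:**
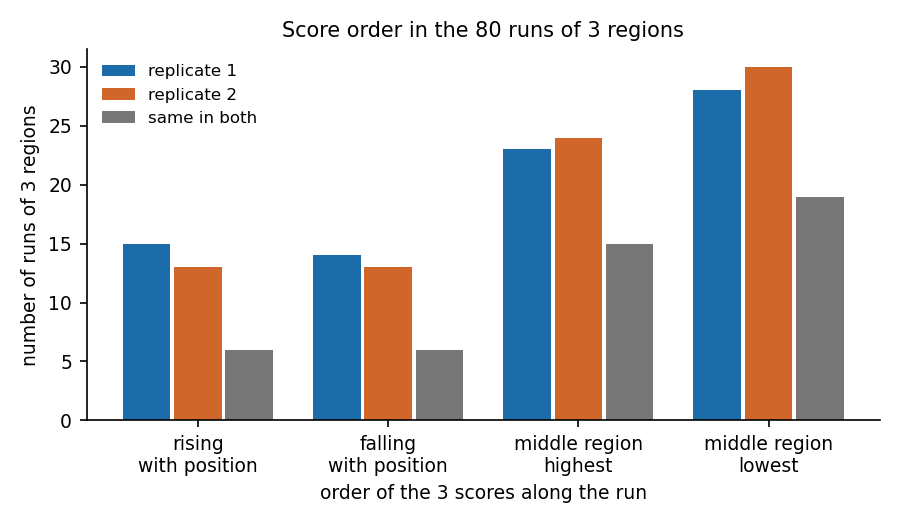
Number of the 80 runs of 3 regions (vertical axis) by the order of their scores along the chromosome (horizontal axis) in replicate 1, in replicate 2, and with that order in both. The middle region was the lowest in 28 and 30 runs and the highest in 23 and 24.

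No place along the run held the highest score in most cases. In the 80 runs of 3, the whole-series score was highest at the first region in 26, at the second in 24 and at the third in 30. In replicate 1 these counts were 26, 23 and 31, and in replicate 2 they were 29, 24 and 27. Scores rose steadily with position in 15 runs in replicate 1 and 13 in replicate 2, and fell steadily in 14 and 13. Rising and falling can each come about in 1 order of 3 scores, and a highest or a lowest middle region in 2 orders each. Position here is the chromosome coordinate, since strand is not known, so a 5′ or 3′ end cannot be assigned.

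Over all 123 runs the highest whole-series score lay at an end in 72 (58.5%, interval 49.7% to 66.9%). End regions were 246 of the 446 regions (55.2%). That value pools regions, so longer runs weigh more in it than in a count of runs. No excess or deficit at ends can be read from setting the 58.5% beside it. The share of runs led by an end region was 61.8% by the replicate 1 score and 56.1% by the replicate 2 score. In runs of 3, where 2 of 3 regions are ends, it was 70% (59.2% to 78.9%) by the whole-series score. In the 43 runs of 4 or more it was 37.2% (24.4% to 52.1%), with 44.2% by replicate 1 and 30.2% by replicate 2. End regions were 86 of 206 (41.7%) there, again pooled over runs of unequal size. End regions and inner regions were alike in width (medians 434 and 479 bp) and in score, with medians of 2.58 and 2.69 in replicate 1 and 2.81 and 2.82 in replicate 2. The highest score fell on the widest region in 49 runs (39.8%, 31.6% to 48.7%). The widest region is 1 of 3 in a run of 3 and a smaller part of a longer run.

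**Figure D5:**
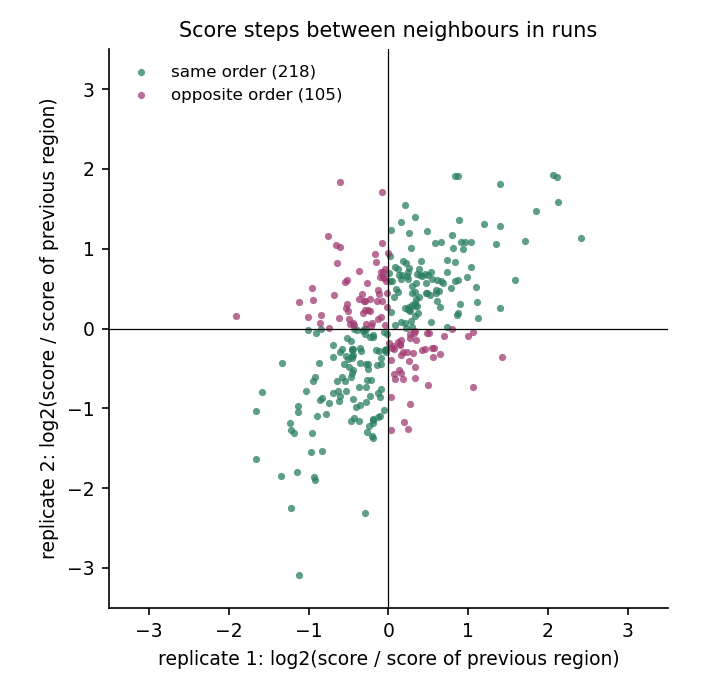
Step in score from each region to the next within a run, as log2 of the ratio of the scores, in replicate 1 (horizontal axis) and replicate 2 (vertical axis), for 323 neighbouring pairs. Points in the upper right and lower left quadrants (218) have the same order in both replicates, and the other 105 have opposite orders.

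The order of neighbours was shared between replicates about as often inside runs as elsewhere. Of the 323 neighbouring pairs in runs, 218 (67.5%, interval 62.2% to 72.4%) had the same order in both replicates, against 68.7% of all neighbouring pairs in the list. It was 68.6% in runs of 2 and 69.2% among neighbours at least 10 kb apart. A larger step was kept more often. Of the 102 pairs whose scores differed by under 0.25 on the log2 scale in replicate 1, 56 (54.9%, 45.2% to 64.2%) kept their order in replicate 2, and of the 38 that differed by at least 1, 32 did (84.2%, 69.6% to 92.6%). The steps in the replicates had a Pearson correlation of 0.57 over the 323 pairs, which share regions with the next pair, and of 0.54 over all neighbours.

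The same region led in both replicates in 72 of 123 runs (58.5%, interval 49.7% to 66.9%), and the same region was lowest in 69 (56.1%, 47.3% to 64.6%). In the runs of 3, the leading region was shared in 51 of 80 (63.8%, 52.8% to 73.4%) and the whole order in 36 (45.0%, 34.6% to 55.9%). For comparison, lone regions taken in successive threes along each chromosome shared the leading one in 602 of 1072 (56.2%, 53.2% to 59.1%) and the whole order in 366 (34.1%, 31.4% to 37.0%). The intervals overlap, and the difference was not tested. A middle region that was lowest in both replicates was found in 19 runs and one that was highest in both in 15, while a steady rise was shared in 6 and a steady fall in 6.

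Score agreement across members was moderate. Spearman rho between the replicates was 0.48 over the 375 members outside U, and 0.56 over the 3625 other regions under 1000 bp outside U. Pearson r of the log2 scores was 0.54 and 0.55 for the same groups. These points share libraries and are not independent replicates. Taken as differences from the mean of their run, the 443 regions of runs outside U gave rho = 0.55, and the 122 run means gave 0.51, so agreement was present within runs as well as between them. All regions scored higher in replicate 2 in 32 runs and in replicate 1 in 13, and the other 78 held regions of both kinds.

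Outside U the 3 runs whose replicate scores lay closest had mean absolute log2 ratios of 0.04 on 2R, 0.08 on 3L and 0.11 on 3R. On 2R (15165370 to 15169762) the scores were 3.09, 3.87 and 2.13 in replicate 1 and 3.27, 3.97 and 2.14 in replicate 2. On 3L (14748015 to 14751518) they were 2.14, 1.87 and 2.28 in replicate 1 and 2.00, 1.86 and 2.54 in replicate 2. On 3R (25045837 to 25047457) they were 1.96, 1.83 and 2.19 in replicate 1 and 2.25, 1.74 and 2.09 in replicate 2, where the ends exchanged places. The middle region was the highest in the first of these runs and the lowest in the others, in both replicates.

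Outside U, the 3 runs with the largest mean absolute log2 ratios were on chromosome 4 (0.98), 3R (0.89) and X (0.83). On chromosome 4 (675806 to 678777) all 3 regions scored higher in replicate 2, with 1.96, 2.70 and 2.00 against 3.49, 4.73 and 4.89. On 3R (1981844 to 1983011), the shortest run, the scores were 3.77, 2.23 and 3.22 in replicate 1 and 1.82, 4.06 and 5.41 in replicate 2. On X (18008885 to 18010950) they were 4.04, 2.65 and 4.15 against 1.5, 5.35 and 4.27. On 3R and X the first region was lower and the second higher in replicate 2, and all regions of these 2 runs were 76 to 224 bp wide. The run on X also had the smallest covered share of all runs, 27.4%.

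Members joined single replicate regions about as often as the whole list did, and less often than the other narrow regions. A total of 355 members (93.9%, interval 91.0% to 95.9%) joined 1 region of each replicate, against 94% of the whole list and 97% of the other regions under 1000 bp. At least 50% of both lengths was shared with replicate 1 in 76.2% of members (71.6% to 80.2%) and 69.0% of other narrow regions. With replicate 2 it was 89.9% of members (86.5% to 92.6%) and 97.3% of other narrow regions. Sharing with a region of each replicate was found in 250 members (66.1%, 61.2% to 70.7%), against 65.6% of the whole list. In narrow regions of runs of 2 it was 60.3%. By width, that share was 68.8% (58.9% to 77.1%) in members of 400 to under 600 bp and 47.3% (43.3% to 51.4%) in other regions of that width, and 57.0% (46.8% to 66.6%) against 39.4% (35.2% to 43.7%) from 600 bp up. In the 125 members of 200 to under 400 bp it was lower than in the others, with 70.4% (61.9% to 77.7%) against 77.9% (75.8% to 79.8%).

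Replicate 2 gave wider regions than replicate 1 in most members, but in a smaller share than among the other narrow regions. Members had a median extent of 269 bp in replicate 1 and 353 bp in replicate 2, and the other regions under 1000 bp had 167 and 253 bp. Replicate 2 gave the wider extent in 290 members (76.7%, 72.2% to 80.7%) and in 3350 of the 3678 others (91.1%, 90.1% to 92.0%). The replicate 1 extent lay wholly inside that of replicate 2 in 219 members (57.9%, 52.9% to 62.8%) and in 81.2% of the others (79.9% to 82.4%). The centres were a median of 25.3 bp apart in members and 17 bp in the others. Regions under 1000 bp in runs of 2 lay between in both shares, with 84.1% wider in replicate 2 and 70.9% with replicate 1 inside. Their centres were a median of 28.5 bp apart, more than in members. Members are wider than the others, and these values were not compared by width.

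Applied to the replicate lists, the rule found 278 runs in replicate 1 and 526 in replicate 2. Of these, 120 (43.2%) and 121 (23%) overlapped a run of the whole-series list, and 119 and 122 of the 123 whole-series runs were overlapped in turn, which follows in large part from how that list joins the replicates. The 158 replicate 1 runs that overlapped no whole-series run held 546 regions, of which 204 (37.4%) are in no whole-series region. The 405 such runs of replicate 2 held 1409, of which 882 (62.6%) are in none. Within the 123 whole-series runs there were few such unmatched regions. Replicate 1 had 9 in 9 runs, with a median width of 51 bp, and replicate 2 had 18 in 16 runs, with a median width of 24.5 bp.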

How the data were processed

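Region lists came as GFF3 with coordinates of FlyBase r5.1 and PeakSeq as their source, per the file headers. For aligner, control and threshold, nothing is given in the sources used here. Per the labels, libraries were selected for fragments of 150 to 200 bp and read for 36 nt. The deposited score has no name or unit, and the authors' score was used as it stands. The whole-series list joins overlapping regions of the replicates. All 446 regions in runs began and ended at the outermost bases of the overlapping replicate regions, and in 433 the score equalled the mean of the replicate scores within 0.0001.

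Overlap was at least 1 bp. A replicate's score for a region is the mean over the regions it overlaps. Samples were grouped by the label that names ChIP or input DNA. Runs named by position are those with the most regions (over all and per chromosome), the longest span, the highest median score outside U, and the closest and most distant replicate scores, plus regions at the limits of the rule. Close pairs of runs, the other 2RHet run and the single high regions were named after their values were seen. The members and comparisons were chosen with earlier results of these data known. Tools were SciPy 1.17.1, NumPy 2.4.6, Matplotlib 3.10.9, pandas 2.3.3 and Python 3.11.15, and the run, order and matching routines were tested on simulated data. Alternatives changed the gap limit, run size, overlap, score, list and chromosomes.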

Additional observations from a re-analysis of the deposited data

How the results depend on the processing

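The counts of runs and members depend on the rule. Runs numbered 67 with a gap limit of 500 bp, 468 from 2 regions up, 43 from 4 up, 19 in the upper 50% of each chromosome by score and 52 where 50% of both lengths had to be shared, and members 181, 987, 173, 46 and 138. A limit of 2000 bp gave 623 members. Leaving out either replicate gave 278 to 526 runs and 997 to 1838 members, with a median span of 2126 to 2150 bp and a median gap of 413 to 417 bp. The median span was 2425 bp at the 500 bp limit, 3696 bp at 2000 bp, 1637 bp from 2 regions up, 4280 bp from 4 up and 3578 bp in the upper 50%. The median gap was 297, 543, 402, 417 and 415 bp in the same order, and 417 bp with 50% shared. Stricter limits leave fewer regions, and the replicate lists hold more.

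The highest score lay at an end in 50 of 67 runs (74.6%) at the 500 bp limit. The same region led in both replicates in 68.7% at that limit and in 74.8% by width. Shares at an end and shared leaders both depend on how many regions a run holds. The share of end regions at the 500 bp limit was not computed, so no end effect can be read from the first value. Neighbours had the same order in 79.9% by width and in 82.3% where scores differed by at least 1.2 times in each replicate. The cause of these differences was not tested. Of 60 alternatives over 8 results, 25 stayed within the spread set for their result and 35 moved. The spread was a factor of 1.5 for counts of runs and members, and the Wilson interval of the main value for shares. For spans and gaps it was the SD of the values from the 2 single replicate lists. For the log2 ratio it was the median absolute log2 ratio of the members divided by the square root of 2. The comparisons of members with other regions were not recomputed under these alternatives. No paired analysis was possible because 1 group alone has files here. Depth is unknown, so absence from a list does not show absence of Pol II.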
